A study of Mus musculus with 24 samples.

Results

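Integrins and laminins were followed as a family of subunits across 4 tissues, the liver, the brain, the heart and skeletal muscle, in male mice, 3 of them WT and 3 Rap1 KI/KI. The subunits were taken by name. Every non-control probe was kept whose accession belongs to a numbered integrin alpha chain (Itga), a numbered integrin beta chain (Itgb) or a laminin alpha, beta or gamma chain (Lama, Lamb, Lamc), and the probe with the highest mean over the 24 arrays stood for its gene. The rule gave 30 genes with 38 probes, of 21368 genes named on the array, and comprised 19 integrin chains and 11 laminin chains. No measured difference entered the rule. Integrin chains named with a letter in place of or after the number, such as the alpha V chain (Itgav) and Itga2b, fell outside it and were counted separately.

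Laminins are cross-shaped proteins of the basement membrane, each built from an alpha, a beta and a gamma chain. Integrins are receptors of an alpha and a beta chain that cross the cell membrane and hold the cell to laminins, collagens, fibronectin or other cells. Striated muscle fibers depend on laminin that contains the alpha 2 chain and on its receptors, the integrin with the alpha 7 chain and dystroglycan, and loss of the alpha 2 chain causes a congenital muscular dystrophy.

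Both genotypes were male, and the knockin line had been backcrossed to C57BL/6N, named C57BL6 in the sample labels. Rap1 KI/KI mice carried the I312R point mutation in both copies of Terf2ip, the gene of the telomere protein RAP1. It was introduced by CRISPR/Cas9 in the germ line, is thus present in every cell type, and prevents RAP1 from binding TRF2. WT mice carried no such mutation. The same 6 mice gave all 4 tissues, so each tissue had 3 WT and 3 Rap1 KI/KI arrays. Ages were 5 months for WT1 and KI1 and 2 months for the other 4. RNA from liver and brain was prepared with one kit and RNA from heart and muscle with another, so that an effect of the kit cannot be told apart from a difference between these pairs of tissues. The arrays lay on 3 slides, with all livers on slide 1 and all muscles on slide 3. No liver shared a slide with a heart or a muscle and no brain with a muscle, so these comparisons have no value within a slide.

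Levels are processed signals divided by each array's own 75th percentile, on a log2 scale, and each level is compared only with the same probe on other arrays. The 75th percentile ranged from 470.67 to 1389 signal units, and 56.48% to 72.72% of probes were well above background, the scanner software's own call that a spot exceeds its surroundings. Each list of tissue markers, given as the log2 of its summed signal, was higher on all 6 arrays of its own tissue than on any other array, with values between 10.83 and 11.77 for the liver, between 7.78 and 8.46 for the brain, between 10.92 and 11.75 for the heart and between 11.94 and 12.31 for muscle. The knockin is a point mutation, so the Terf2ip level does not check the genotype, and Terf2ip differed between genotypes by -0.41 in the heart to 0.12 in the liver (lowest adjusted p = 0.663). The hearts of KI1 and KI3 had the highest adipocyte and smooth muscle markers among hearts, and the brain of KI3 had the highest macrophage, fibroblast, endothelial and smooth muscle markers among brains. The muscle of KI3 had the highest summed level of the brain list among muscles, 5.87, where the other 5 lay between 3.53 and 4.19, and its neuronal gene Syn1 read 3.62 there against -4.00 to -1.19 in the other 5 muscles. These 4 arrays, all from Rap1 KI/KI mice, are called below the arrays that stood apart. The heart of WT1 was not among them. Of its heart markers, Myl7 read -2.41, against 5.03 to 8.33 in the other hearts, and Nppa 6.995, against 8.77 to 9.72. The heart marker Myh6 read 8.94 there, against 8.51 to 9.35 in the other hearts. The adipocyte markers of WT1 were the lowest among hearts.

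Of the 30 genes, 26 were well above background on all 24 arrays. Itga2, the alpha chain of a collagen receptor of platelets and epithelia, was not well above background on any array and was not tested. Itgb6, the beta chain of an epithelial receptor that activates TGF-beta, was measured on the 6 heart and 6 muscle arrays and on none from liver or brain. Itgb8, a beta chain that also pairs with alpha V, was measured on the 6 brain arrays alone. Lama1, the laminin alpha chain of the early embryo, was measured on all 6 liver and all 6 brain arrays but on 1 of 6 heart and 1 of 6 muscle arrays. Itgb6, Itgb8 and Lama1 passed the filter of the 24-array test only through the tissues in which they were high, and counts are therefore also given over the other 26.

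The stretches of DNA before transcript starts of 3 chains are shown for their contrasting patterns over the tissues: Lamb2, highest in heart and next in muscle, Itga11, highest in muscle, and Itgb8, measured in the brain. Each is the run of 250 bases before a transcript start of the RefSeq annotation on GRCm38.p6, read 5′ to 3′ along the gene's strand, with capitals marking E-boxes, the motif CANNTG bound by basic helix-loop-helix factors, among them those of muscle.
Lamb2: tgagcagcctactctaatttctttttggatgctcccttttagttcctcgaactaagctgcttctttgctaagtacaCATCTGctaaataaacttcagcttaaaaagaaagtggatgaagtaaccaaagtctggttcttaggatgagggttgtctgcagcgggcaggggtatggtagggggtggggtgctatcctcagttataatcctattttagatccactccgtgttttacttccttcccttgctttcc
Itga11: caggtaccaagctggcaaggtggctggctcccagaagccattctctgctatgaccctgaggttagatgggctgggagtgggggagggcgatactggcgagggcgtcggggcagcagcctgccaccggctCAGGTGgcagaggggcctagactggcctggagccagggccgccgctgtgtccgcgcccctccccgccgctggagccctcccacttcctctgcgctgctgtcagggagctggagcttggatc
Itgb8: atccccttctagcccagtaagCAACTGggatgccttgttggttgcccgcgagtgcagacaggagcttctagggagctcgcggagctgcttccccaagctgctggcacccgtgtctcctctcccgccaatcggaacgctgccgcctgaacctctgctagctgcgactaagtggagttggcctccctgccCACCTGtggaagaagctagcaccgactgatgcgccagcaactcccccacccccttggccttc
The Lamb2 stretch lies at chr9:108479612-108479861 on the plus strand, that of Itga11 at chr9:62677605-62677854 on the plus strand and that of Itgb8 at chr12:119238277-119238526 on the minus strand. The E-box motif is its own complement, so both strands were searched at once. The last bases of the Lamb2 stretch lie within the annotated gene, which begins upstream of this transcript start. Lamb2 and Itga11 held 1 match each and Itgb8 held 2. The table gave 22 stretches for 19 of the 30 chains, of which 19 held at least 1 E-box, or 86.4%, against 66.2% of all 32851 stretches of that length. None of the 3 stretches held the letters GGGCGG or their complement CCGCCC, the GC box. Of the 22 stretches of the chains 8 held it, or 36.4%, near the 32.7% of all stretches. A match describes these letters only.

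The direction of the tissue differences, more than their number, set the chains apart in count from other genes. In the limma F test of tissue over 24 arrays, 27 of 29 tested chains had an adjusted p under 0.05, referred to as called below, against 96.2% of the 18394 named genes tested. The exceptions were Itga10, with an adjusted p of 0.176, and Lamc3, with an adjusted p of 0.117. Without the 4 arrays that stood apart the adjusted p was 0.501 for Itga10 and 0.0111 for Lamc3. Of the 26 chains measured on every array, 16, or 61.5%, had their highest mean in the heart, against 18.4% of named genes measured on every array, and 7 of these 16 were laminins. The lowest mean was in the brain for 15, or 57.7%, against 44.5%. In these bulk tissues fewer cells of a type and less RNA per cell cannot be told apart.

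Between brain and heart, 21 of 29 chains were higher in the heart, against 43% of named genes, and 4 were higher in the brain, against 30.7%. Between liver and heart, 18 were higher in the heart, against 35.4%, and 2 in the liver, against 36.9%. Between brain and muscle, 18 were higher in muscle, against 43.3%, and 5 in the brain, against 33%. Heart thus exceeded brain and liver for most chains. Between liver and muscle, 15 were higher in muscle, against 37.5%, and 9 in the liver, against 38%. Heart and muscle were prepared with the same kit, and between them 18 chains were higher in the heart, against 26.3%, and 4 in muscle, against 23.8%. Between liver and brain, 12 chains were higher in the liver, against 47%, and 9 in the brain, against 35.3%, so that this pair lay close to the background. These 6 comparisons share arrays. The 18 chains called between liver and heart and the 15 between liver and muscle include Itgb8, which was below background in all 3 tissues and has no fold there.

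Over the 26 chains measured on every array, 20 were higher in the heart than in the brain and 2 lower, where 48.5% and 24.9% of named genes measured on every array were. Likewise 16 were higher in the heart than in the liver, against 35.6%, and 1 lower, against 39.3%. Compared with muscle, 18 were higher in the heart, against 26.9%, and 3 lower, against 26%. Of the same 26, 17 were higher in muscle than in the brain, against 49.9%, and 3 lower, against 26.7%. Compared with the liver, 13 were higher in muscle, against 37.7%, and 8 lower, against 39.2%. For liver against brain, 12 were higher in the liver, against 52.5%, and 8 in the brain, against 29.2%. The median of these chains was -2.54 for brain minus heart, where that of all named genes measured on every array was -0.40. For heart minus muscle the medians were 0.78 and -0.01. Scaling bears on the comparisons with the brain. The median tested named gene was 0.35 higher in the liver than in the brain with the 75th percentile and 0.02 higher with quantile normalization. The median chain lay -0.05 from that gene in the first case and 0.30 in the second, so that for liver against brain the sign of this distance depended on the scaling.

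Without the 4 arrays that stood apart, 9 of the 135 called differences between tissues no longer passed and 9 others did. The ones lost were those of Itga9 for liver against brain and brain against muscle, of Itgb3, Itgb5 and Itgb8 for liver against heart, and of Itgb1, Itgb2, Itga6 and Lamc1 for heart against muscle. The ones gained were those of Lama1, Lama4 and Lamc1 for liver against brain, Itgb5 for liver against muscle, Itga3 and Lamc3 for brain against heart, Itga8 and Itgb2 for brain against muscle and Lamc3 for heart against muscle.

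**Figure D1:**
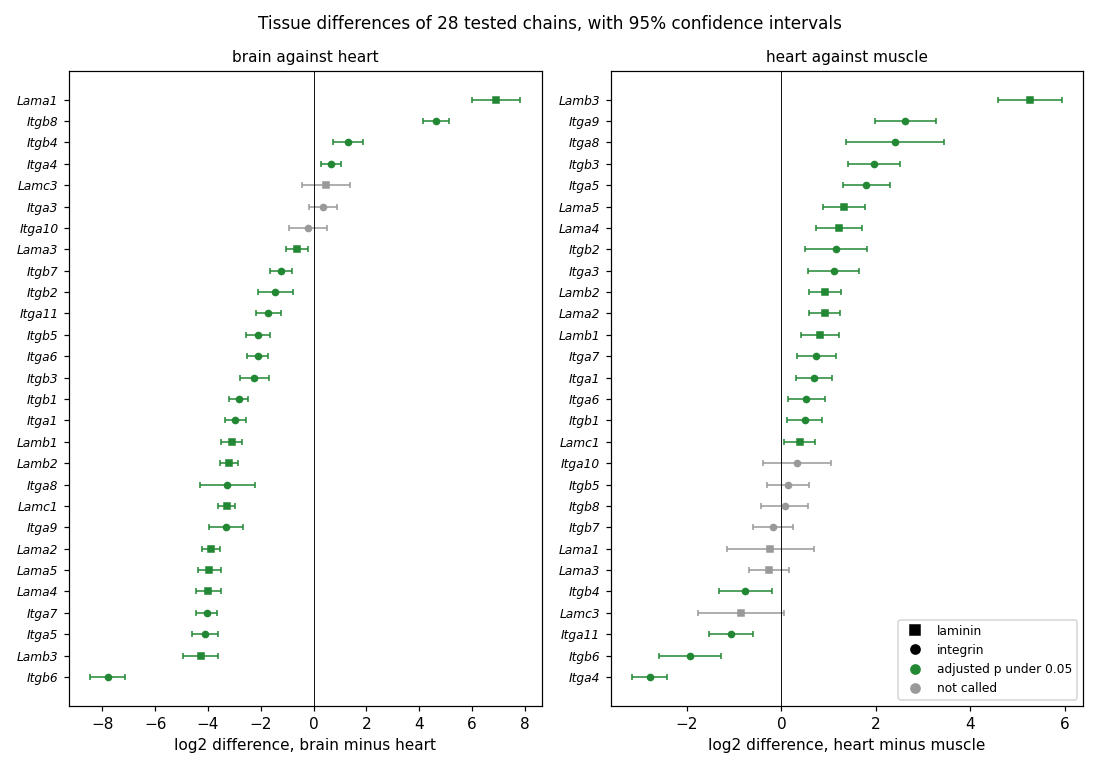
Log2 differences between brain and heart and between heart and muscle for 28 tested chains, averaged over the genotypes, with 95% confidence intervals from limma over 24 arrays. Squares are laminins, circles are integrins, green marks an adjusted p under 0.05, and each panel has its own scale. Of the 10 laminins drawn, 8 were called higher in the heart than in the brain, where 43% of named genes were. The heart was called higher than muscle for 7 of them, where it was for 26.3% of named genes. Lama1 and Itgb8 lie far on the brain side, and Itga4, Itgb6 and Itga11 lie farthest on the muscle side. For Lama1, Itgb6 and Itgb8, at least 1 tissue was mostly or wholly below background.

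Among the laminin alpha chains, Lama2, Lama4 and Lama5 had heart first and muscle second, with liver and brain well below. Lama2, the alpha chain of the muscle fiber basement membrane, had a mean level of 4.44 ± 0.20 in the heart (SD, n = 6, as for all tissue means below), 3.52 ± 0.24 in muscle, 0.55 ± 0.23 in the brain and -0.61 ± 0.30 in the liver. No value of one tissue overlapped another, and the heart was 33.1-fold above the liver (adjusted p = 5.21e-16) and 1.89-fold above muscle (adjusted p = 7.74e-05). Lama4, the alpha chain of blood vessel basement membranes, ranged from 3.13 to 3.32 over the 6 hearts and from 1.65 to 2.75 in muscle. Its brain values, from -1.15 to 0.28, overlapped those of the liver, from -0.79 to -0.21, and KI3 gave the highest brain value. Without the brain of KI3 the brain mean was -0.95 ± 0.37 (SD, n = 5), against -0.52 ± 0.23 in the liver. Lama5, the most widely distributed alpha chain of the adult, had means of 4.23 ± 0.50 in the heart, 2.90 ± 0.09 in muscle, 0.86 ± 0.29 in the liver and 0.29 ± 0.41 in the brain. Each of these 3 chains was higher in the heart than in the muscle of the same animal in 6 of 6 mice. For Lama5 the difference between heart and muscle was 1.33 and, with the slide as a block, 0.78 (adjusted p = 0.0168).

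The remaining alpha chains followed other orders. Lama1 was highest in the liver, at 1.48 ± 0.25, followed by the brain, at 0.67 ± 0.50, and this difference did not pass the test (adjusted p = 0.0976, and 0.0123 without the arrays that stood apart). Hearts read between -7.85 and -4.45 and muscles between -7.29 and -4.10, where 5 of 6 arrays of each tissue were not well above background. Lama3, the alpha chain of the epithelial laminin that anchors skin, was also highest in the liver, at -0.03 ± 0.38, with means of -1.36 ± 0.39 in muscle, -1.62 ± 0.40 in the heart and -2.24 ± 0.21 in the brain. Heart and muscle did not pass the test for Lama3 (difference -0.26, adjusted p = 0.328). The second, dimmer probe of Lama3 also had its highest mean in the liver, -1.20, but read -3.04 in the brain and -3.59 in the heart, the opposite order of these tissues.

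Lamb1, Lamb2 and Lamc1, beta and gamma chains that assemble with Lama2, Lama4 and Lama5, likewise had heart first and muscle second. Lamb1, a broadly expressed beta chain, had means of 4.57 ± 0.13 in the heart, 3.76 ± 0.42 in muscle, 1.71 ± 0.32 in the liver and 1.46 ± 0.29 in the brain. Lamb2, the beta chain of the neuromuscular junction, stood at 3.71 ± 0.35 in the heart and 2.79 ± 0.32 in muscle, with 0.52 ± 0.34 in the brain and -1.28 ± 0.15 in the liver. Lamc1, the gamma chain of most laminins, reached 5.17 ± 0.20 in the heart and 4.79 ± 0.25 in muscle against 2.17 ± 0.16 in the liver and 1.87 ± 0.36 in the brain. The heart exceeded the brain 8.62-fold for Lamb1, 9.14-fold for Lamb2 and 9.84-fold for Lamc1 (adjusted p of 2.56e-11, 2.66e-12 and 6.47e-13). Liver and brain did not pass the test for Lamb1 (adjusted p = 0.243) or Lamc1 (adjusted p = 0.0809, and 0.0182 without the arrays that stood apart), while Lamb2 was 3.49-fold higher in the brain. For Lamc1 the difference between heart and muscle was small, 0.39, and positive in 6 of 6 mice. Its adjusted p of 0.0498 became 0.169 with the slide as a block and 0.109 without the 4 arrays that stood apart.

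Lamb3, a beta chain of the laminin that anchors epithelia, had the widest difference between heart and muscle of the 29 chains. Its mean was 2.05 ± 0.57 in the heart, -0.69 ± 0.43 in the liver, -2.24 ± 0.41 in the brain and -3.22 ± 0.85 in muscle. The 6 hearts lay between 1.37 and 2.86 and the 6 muscles between -4.54 and -2.19, a 38.5-fold difference (adjusted p = 9.66e-11). Lamc3, a gamma chain known from the retina and brain, did not pass the F test over all arrays (adjusted p = 0.117) but did without the arrays that stood apart (adjusted p = 0.0111), and its heart values spread from -3.56 to 0.34.

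**Figure D2:**
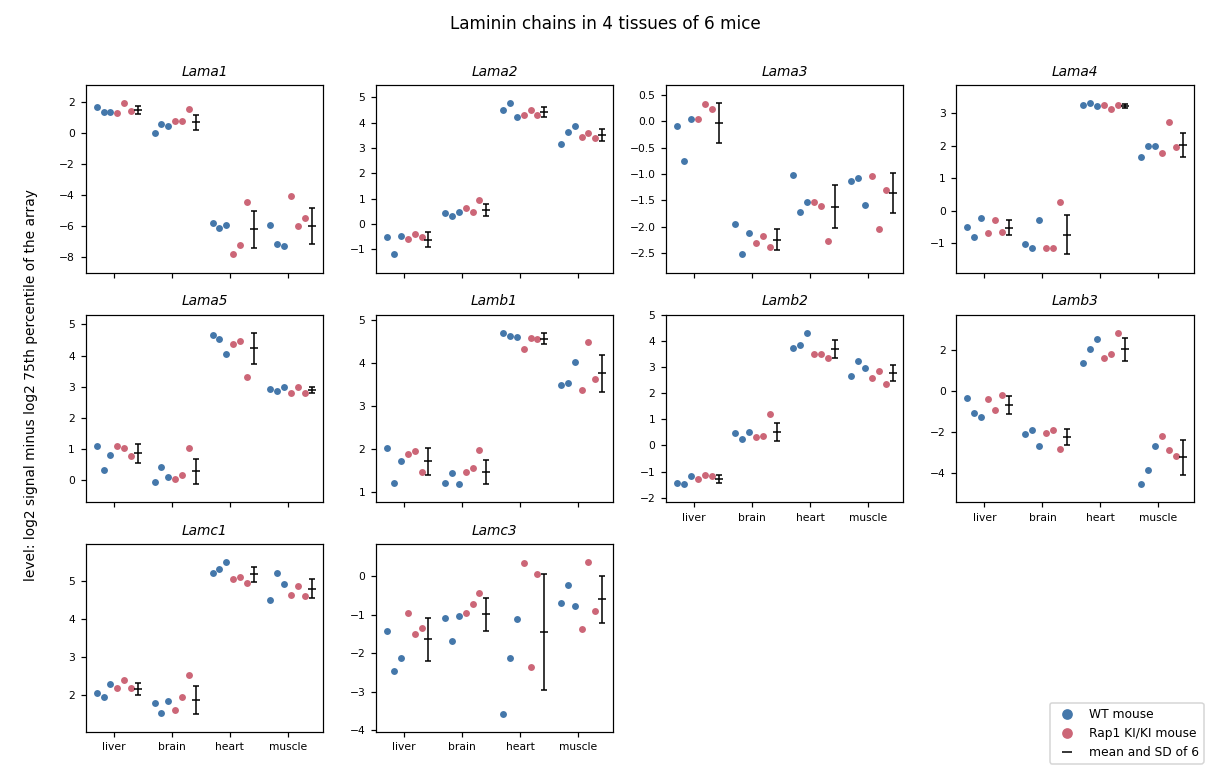
Levels of 10 laminin chains in every mouse, as log2 signal over each array's own 75th percentile, by tissue. Each panel has its own vertical scale, and bars give the mean and SD over 6 mice. Lama2, Lama4, Lama5, Lamb1, Lamb2 and Lamc1 are highest in heart and next in muscle, Lama1 is high in liver and brain, and the Lamc3 hearts run from -3.56 to 0.34.

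Of the integrin chains that bind laminin, Itga6 and Itga7 were highest in heart and muscle. Itga7, the main laminin-binding alpha chain of striated muscle, had levels of 6.28 ± 0.24 in the heart and 5.54 ± 0.11 in muscle against 2.30 ± 0.54 in the liver and 2.23 ± 0.36 in the brain. The heart was 16.6-fold above the brain (adjusted p = 1.09e-12), while liver and brain did not pass the test (adjusted p = 0.721). Itga6, which pairs with Itgb1 or Itgb4, stood at 4.98 ± 0.31 in the heart, 4.45 ± 0.38 in muscle, 2.86 ± 0.36 in the brain and 0.18 ± 0.30 in the liver. Heart exceeded muscle in 6 of 6 mice for both genes, by 0.74 for Itga7 and 0.53 for Itga6. With the slide as a block these differences were 0.69 and 0.61 and no longer passed (adjusted p of 0.0769 and 0.0967), and without the 4 arrays that stood apart Itga6 did not pass either (adjusted p = 0.0641).

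Itgb4, which joins the alpha 6 chain in hemidesmosomes and in Schwann cells, had another order than its partner. It was highest in the brain, at 1.27 ± 0.43, followed by muscle, at 0.73 ± 0.44, heart, at -0.03 ± 0.74, and liver, at -2.05 ± 0.51, and brain and muscle did not pass the test (adjusted p = 0.0829). Itga3, the alpha chain of epithelial laminin receptors, ranged from -1.28 ± 0.36 in the brain to -2.75 ± 0.40 in muscle and was lower in muscle than in each other tissue. Itgb1, the beta chain shared by most integrins, was low in the brain, at -0.35 ± 0.26, against 2.65 ± 0.15 in the liver, 2.49 ± 0.32 in the heart and 2.00 ± 0.39 in muscle. The liver was 8.01-fold above the brain for Itgb1 (adjusted p = 8.67e-12). Its difference between heart and muscle, 0.49, was 0.14 with the slide as a block (adjusted p = 0.696) and 0.32 without the arrays that stood apart (adjusted p = 0.201). The muscle of KI3, with its brain transcripts, was the lowest for Itgb1, at 1.24, and without it the muscle mean was 2.15 ± 0.10 (SD, n = 5). Their part in the result was not tested. The second probe of Itgb1 likewise had its lowest mean in the brain, -2.89, but placed the liver, at -0.32, below muscle, at 0.46.

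The collagen-binding alpha chains differed from each other in order. Itga1, a collagen IV receptor, was low in the brain, at -2.30 ± 0.40, and lay between -0.03 and 0.67 on average in the other 3 tissues. Itga11, a collagen I receptor of fibroblasts, had a mean of 2.11 ± 0.37 in muscle, ahead of the heart, at 1.03 ± 0.38, the brain, at -0.68 ± 0.37, and the liver, at -2.77 ± 0.40. All 6 pairs of tissues passed the test for Itga11, and muscle was 29.3-fold above the liver (adjusted p = 1.91e-13). Itga10, a collagen II receptor of cartilage, showed no called difference, with means between -1.28 and -0.50.

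Of the alpha chains that recognize the RGD motif of fibronectin and related ligands, Itga5 was lowest in the brain, at -4.07 ± 0.39, and highest in the heart, at 0.04 ± 0.42, and the liver, at -0.11 ± 0.49. Heart and liver did not pass the test for Itga5 (adjusted p = 0.598), and both exceeded muscle, at -1.76 ± 0.35. Itga8, a chain of smooth muscle and mesenchyme, had a mean of 1.95 ± 1.87 in the heart, the widest SD within a tissue among the 30 chains. Without the hearts of KI1 and KI3 the heart mean was 0.84 ± 0.89 (SD, n = 4), and without the 4 arrays that stood apart the brain minus heart difference was -2.52 (adjusted p = 4.38e-05) instead of -3.26. Without the heart of WT1 alone the heart mean was 2.35 ± 1.77 (SD, n = 5).

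Itga4 and Itga9, alpha chains that bind VCAM1, tenascin and related ligands, had their highest levels in different tissues. Itga4, best known from leukocytes, was highest in muscle, at 2.01 ± 0.37, followed by the brain, at -0.12 ± 0.19, the heart, at -0.78 ± 0.45, and the liver, at -1.80 ± 0.24. Every muscle value was above every value of the other tissues, and muscle was 6.91-fold above the heart (adjusted p = 1.56e-10). The summed lymphocyte markers lay between 1.64 and 2.71 in the heart and between 0.15 and 0.72 in muscle. The macrophage markers lay between 5.52 and 5.88 in the heart and between 3.59 and 4.94 in muscle. The neutrophil markers lay between 2.40 and 4.99 in the heart and between 0.67 and 6.59 in muscle. The part of these lists in the Itga4 level was not tested. Itga9, a chain of smooth muscle and lymphatic endothelium, was highest in the heart, at 2.23 ± 0.43, and lay between -1.10 and -0.29 on average in the other tissues. The heart was 10.1-fold above the brain for Itga9 (adjusted p = 9.51e-09).

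The beta chains that pair with alpha V included those with the sharpest tissue limits. Itgb6 ran from 1.33 to 2.44 in muscle and from -1.08 to 0.75 in the heart. Muscle was at least 289-fold above the brain and at least 272-fold above the liver, and the heart at least 75.6-fold above the brain, where the lowest signal called well above background stood for the unmeasured side. The second probe of Itgb6 was likewise well above background on all 6 heart and all 6 muscle arrays and on none of the other tissues. Itgb8 lay between -2.97 and -2.32 in the brain, at least 12-fold above the liver, 8.69-fold above the heart and 6.60-fold above muscle. Its levels elsewhere were below background and have no order. Both chains entered the test only through the tissues in which they were measured, so no p is given for these differences.

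Itgb5, a widely expressed partner of alpha V, was lower in the brain, at 3.01 ± 0.38, than in the heart, at 5.12 ± 0.34, muscle, at 4.98 ± 0.56, and liver, at 4.54 ± 0.23. The muscle of KI3 was again the lowest, at 4.05, and the other 5 had a mean of 5.16 ± 0.37 (SD). Itgb3, known from platelets and osteoclasts, was highest in the heart, at 1.62 ± 0.73, against 0.64 ± 0.36 in the liver, by its brighter probe (adjusted p = 0.00288, and 0.0612 without the arrays that stood apart). The dimmer probe of Itgb3 read -3.98 in the liver and -4.82 in the heart, so the order of these tissues depended on the probe. The platelet markers, summed, lay between 5.05 and 6.09 in the heart and at most 4.12 on the other arrays, and their part in the Itgb3 level was not tested. The leukocyte beta chains Itgb2 and Itgb7 both had their lowest mean in the brain. For Itgb2, brain and muscle did not pass the test over all arrays (adjusted p = 0.0197 without the arrays that stood apart). The brain was above the muscle of the same animal in 3 of 6 mice. Itgb2 had means of -0.04 ± 0.39 in the liver, -0.21 ± 0.47 in the heart, -1.36 ± 0.61 in muscle and -1.66 ± 0.75 in the brain, where KI3, the brain with the highest macrophage markers, stood at -0.23 and the other 5 brains between -2.39 and -1.53, with a mean of -1.95 ± 0.30 (SD). Itgb7 was -2.28 ± 0.43 in the brain and between -1.04 and -0.87 on average elsewhere.

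**Figure D3:**
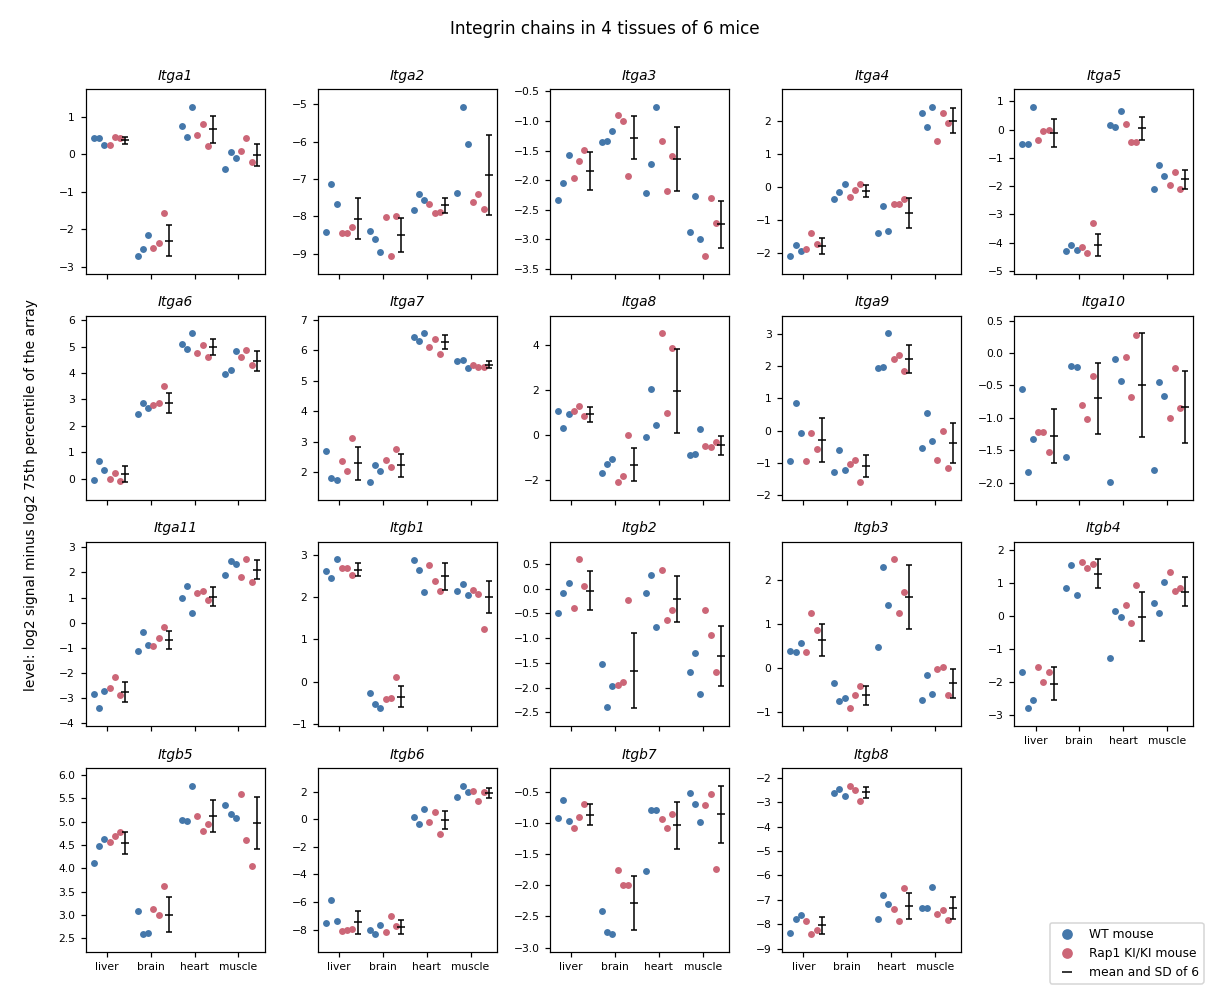
Levels of the 19 integrin chains in every mouse, as log2 signal over each array's own 75th percentile, by tissue. Each panel has its own vertical scale, and bars give the mean and SD over 6 mice. Itgb6 stands high in heart and muscle and Itgb8 in brain, Itga4 and Itga11 are highest in muscle, and the Itga8 hearts run from -0.08 to 4.49. No value of Itga2 was well above background.

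The partners of the chains were counted from lists. Of 13 other components of the basement membrane, 12 were higher in the heart than in the brain and 1 lower, against 43% and 30.7% of named genes, with a median of -4.01 for brain minus heart beside -0.28 over all named genes. Among them were perlecan (Hspg2, -5.54), the collagen IV chain Col4a4 (-4.68) and nidogen (Nid1, -4.16). The collagen chains Col4a3 and Col15a1 were not well above background on any brain array. They were at least 17.5-fold and 14.6-fold higher in the heart. Both passed the filter only through other tissues, and the counts for brain and heart and their median include them. Between heart and muscle, 4 of the 13 were higher in the heart, against 26.3% of named genes, and 0 in muscle, against 23.8%. The share higher in the heart was near that of named genes, and these genes included the collagen IV chain Col4a5 (2.36) and agrin (Agrn, 1.52). Of 13 genes of the dystrophin complex and other laminin receptors, 13 were higher in the heart than in the brain, against 43% of named genes. Among them were the sarcoglycans Sgca (-8.17) and Sgcd (-4.83) and the laminin receptor Bcam (-4.56). Between heart and muscle 3 were higher in the heart, against 26.3%, among them Bcam (2.13, adjusted p = 1.71e-08), and 2 in muscle, against 23.8%, among them Sgca (-1.13).

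Of 20 adaptor proteins that join integrins to actin, 14 were higher in the heart than in the brain and 2 lower, against 43% and 30.7% of named genes. Tensin (Tns1) differed by -4.64 for brain minus heart. Itgb1bp2, the muscle protein melusin, had a mean of 4.58 in the heart and was well above background on 2 of 6 brain arrays, so no fold is given. Of 13 tested ligands of integrins other than laminins, 9 were higher in the heart than in the brain and 2 lower, against the same shares. Fibronectin (Fn1) was higher in the liver than in the heart by 3.95 and vitronectin (Vtn) by 5.55. Of 6 tested integrin chains outside the rule, 3 were higher in the heart than in the brain and 1 lower, which is near those shares.

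Between genotypes, no chain was called in any tissue by limma, and no named gene was (0% in each tissue). At an unadjusted limma p under 0.05, 1 chain was higher in the brain of Rap1 KI/KI mice, Itgb7, where 1.7% of named genes were, and 0 of 28 were lower, against 0.951%. At that threshold 0 chains were higher or lower in the other tissues, against 1.49% of named genes higher and 0.554% lower in the liver, 2.47% and 3% in the heart, and 1.59% and 0.799% in muscle. The test of whether the genotype difference varied between tissues called 0 of 29 chains (0% of named genes), and 0 had an unadjusted p under 0.05, against 2.9% of named genes. The 95% confidence interval of the difference stayed within 1 log2 unit of 0 for 15 of 28 chains tested in the brain, and, of 27 chains tested elsewhere, for 18 in the liver, 18 in muscle and 14 in the heart. For the other chains larger differences lie within the interval.

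**Figure D4:**
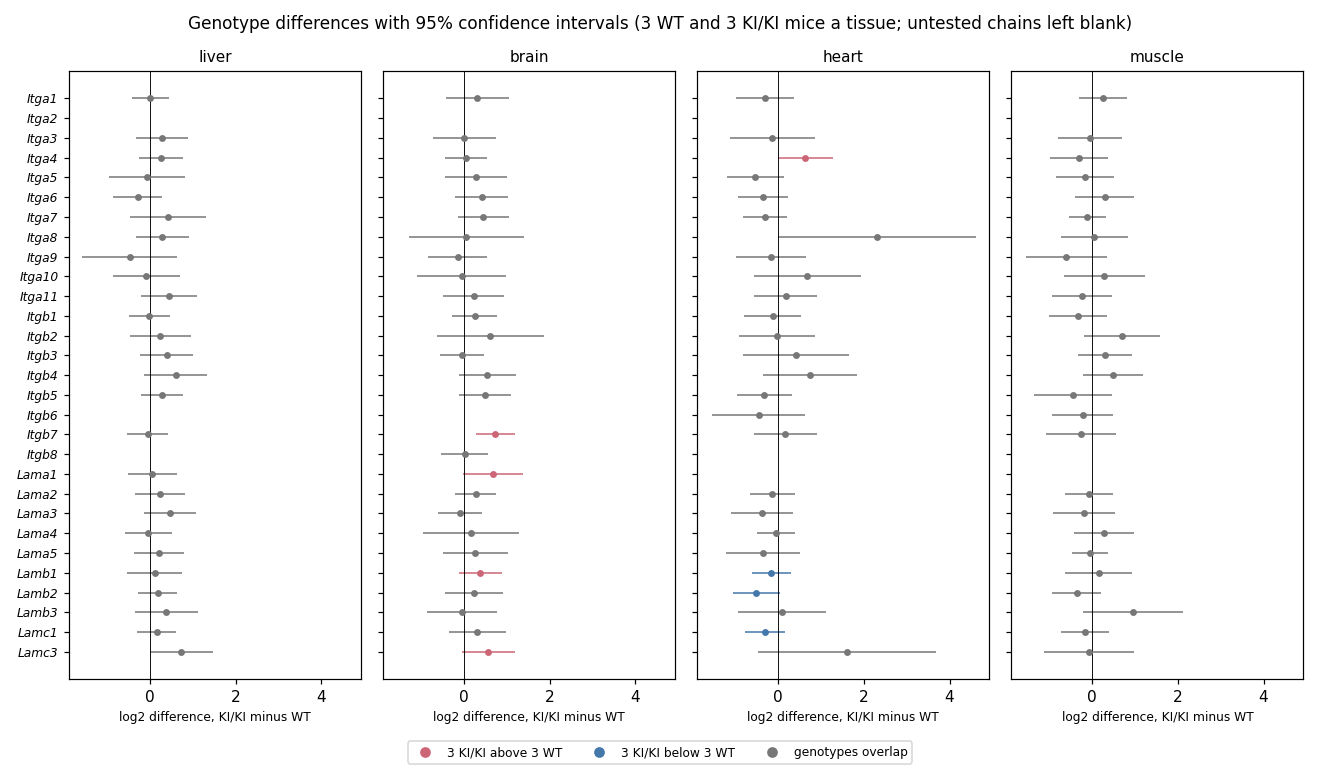
Log2 differences between Rap1 KI/KI and WT mice for the chains drawn, in each tissue where they were tested, with 95% confidence intervals from limma (3 mice a group). Red and blue points mark chains whose 3 Rap1 KI/KI values lay all above or all below the 3 WT values. In the brain 4 chains lay above and 0 below, against 5.77% and 2.94% of named genes. In the heart 1 lay above and 3 below, near the 3.38% and 11.7% of named genes. The intervals of Itga8 and Lamc3 in the heart are the widest.

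In the brain, Itgb7, the beta chain of gut-homing lymphocytes, read -2.42, -2.74 and -2.78 in WT1, WT2 and WT3 and -1.75, -2.0 and -2.0 in KI1, KI2 and KI3. The 3 Rap1 KI/KI brains were all above the 3 WT brains, with a difference of 0.73 ± 0.19 (SE, adjusted p = 1). Lama1 read -0.02, 0.59 and 0.42 in the WT brains and 0.74, 0.77 and 1.51 in the Rap1 KI/KI brains. Lamc3 read -1.09, -1.69 and -1.04 against -0.96, -0.72 and -0.43, and Lamb1 read 1.19, 1.44 and 1.19 against 1.45, 1.54 and 1.97. These were the 4 of 28 chains whose Rap1 KI/KI brains all exceeded the WT brains, where 5.77% of named genes did, while 0 chains lay below all WT brains, against 2.94%, and KI3 was the highest brain for Lama1, Lamc3 and Lamb1. The differences were 0.68 for Lama1, 0.57 for Lamc3 and 0.38 for Lamb1, and without KI3 they were 0.43, 0.43 and 0.22.

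Of the 28 chains tested in the brain, 22 had a higher mean in Rap1 KI/KI mice, where 51.8% of named genes did. The median difference was 0.26 against 0.01 over all named genes. Relative to the WT means, the median chain stood at 0.67 in KI3, 0.04 in KI1 and 0.11 in KI2. Without KI3 the median difference was 0.06. The macrophage markers summed to 6.73 in KI3 and to between 5.36 and 5.69 in the other 5 brains. The fibroblast markers summed to 5.82 in KI3 and to between 3.82 and 4.63 in the others. Both lists overlapped between the genotypes. The endothelial markers lay between 2.85 and 3.35 in WT brains and between 3.38 and 4.33 in Rap1 KI/KI brains, highest in KI3. Those of smooth muscle cells and pericytes lay between 3.537 and 3.665 in WT and between 3.679 and 4.401 in Rap1 KI/KI brains. Those of choroid plexus and ependyma lay between 4.67 and 5.99 in WT and between 6.02 and 6.88 in Rap1 KI/KI brains, highest in KI1. The part of these marker lists in the result was not tested. Spp1, osteopontin, an integrin ligand, had a brain difference of 2.17 (adjusted p = 1).

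In the heart, 4 of 27 chains did not overlap between genotypes, 3 lower and 1 higher in Rap1 KI/KI mice, and both shares were near those of named genes. Lamb2 read 3.74, 3.84 and 4.33 in the WT hearts and 3.51, 3.51 and 3.36 in the Rap1 KI/KI hearts, a difference of -0.51 ± 0.23 (SE, adjusted p = 0.646). Lamc1 read 5.19, 5.30 and 5.48 against 5.04, 5.09 and 4.93, and Lamb1 read 4.71, 4.64 and 4.61 against 4.32, 4.58 and 4.57. These 3 laminin chains of 27 chains, or 11.1%, were lower in every Rap1 KI/KI heart than in every WT heart, where 11.7% of named genes were. With quantile normalization the Lamb1 difference in the heart was 0.05 instead of -0.16. It was -0.08 without the hearts of KI1 and KI3, which left KI2 alone against the WT hearts. Itga4 alone was higher in every Rap1 KI/KI heart, with -1.39, -0.58 and -1.32 against -0.52, -0.51 and -0.36. It made up 3.7% of the chains, where 3.38% of named genes were.

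The largest difference in the heart was that of Itga8, 2.31 ± 0.97 (SE, adjusted p = 0.646). Its values were -0.08, 2.01 and 0.44 in the WT hearts and 4.49, 0.97 and 3.84 in the hearts of KI1, KI2 and KI3, so that KI2 lay among the WT hearts. Lamc3 was likewise highest in KI1 and KI3, with -3.56, -2.11 and -1.10 in the WT hearts and 0.34, -2.36 and 0.06 in the Rap1 KI/KI hearts. Without the hearts of KI1 and KI3, KI2 alone was left against the 3 WT hearts. Lamc3 then differed by -0.11 instead of 1.60, and Itga8 by 0.18 between the genotypes. The heart of WT1 was the lowest for both chains and was kept in this comparison. The adipocyte markers summed to 7.41 in KI1 and 8.58 in KI3, to between 4.77 and 5.17 in KI2, WT2 and WT3 and to 0.21 in WT1. The defining adipocyte gene Adipoq, adiponectin, was at 4.05 in KI1 and 4.86 in KI3 and at -4.23 in WT1. The smooth muscle and pericyte markers summed to 8.62 and 8.01 in KI1 and KI3 and to between 6.93 and 7.24 in the other 4 hearts. Their part in the result was not tested.

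**Figure D5:**
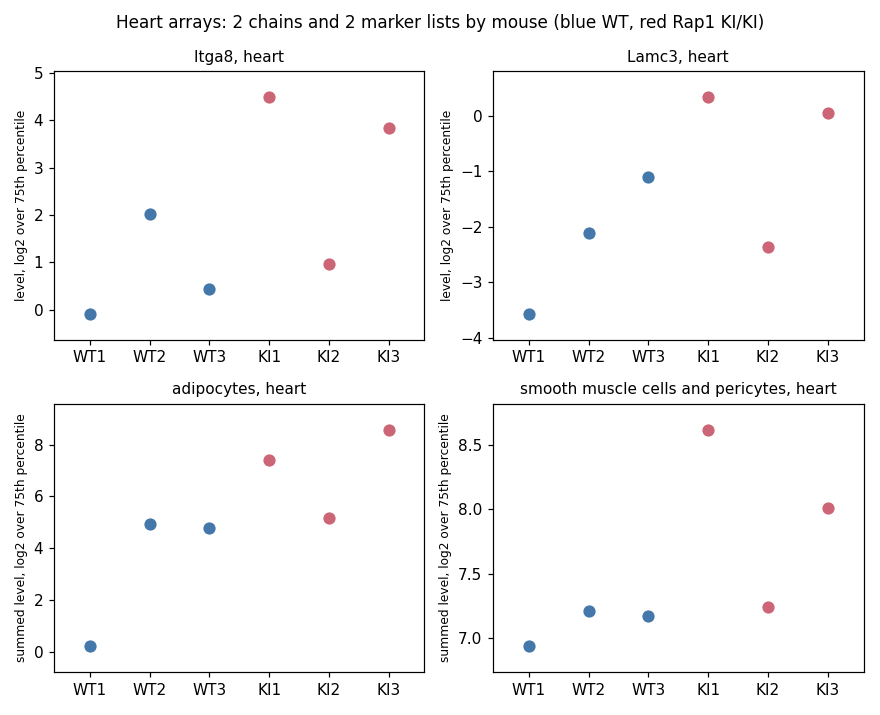
Levels of Itga8 and Lamc3 and the summed levels of the adipocyte and smooth muscle marker lists in the 6 hearts, as log2 signal over each array's own 75th percentile. Each panel has its own vertical scale, and blue points are WT and red points Rap1 KI/KI. The hearts of KI1 and KI3 are the highest in all 4 panels and the heart of WT1 is the lowest.

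In the liver no chain separated the genotypes, where 3.34% of named genes were above and 1.89% below all WT livers. The smallest p belonged to Lamc3, which read -1.42, -2.46 and -2.12 in the WT livers and -0.95, -1.51 and -1.34 in the Rap1 KI/KI livers, a difference of 0.74 ± 0.31 (SE, adjusted p = 1). Itgb4 read -1.72, -2.79 and -2.55 against -1.56, -2.0 and -1.70, and Lama3 read -0.09, -0.74 and 0.04 against 0.04, 0.32 and 0.23. The liver of WT2 was the lowest for all 3. The median difference over 27 chains was 0.24 against 0.03 over all named genes, and it was 0.08 without WT2.

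In muscle no chain separated the genotypes either, where 2.52% of named genes were above and 3.96% below all WT muscles. Lamb3 read -4.54, -3.87 and -2.67 in the WT muscles and -2.19, -2.88 and -3.18 in the Rap1 KI/KI muscles, a difference of 0.94 ± 0.50 (SE, adjusted p = 0.939). Itgb2 read -1.68, -1.31 and -2.14 against -0.43, -0.93 and -1.69. The neutrophil markers summed to 6.59 in KI1, the muscle with the highest Itgb2, to 3.80 in KI3 and to at most 1.96 in the other 4, and their part in the result was not tested. Itgb4 read 0.37, 0.08 and 1.01 against 1.31, 0.75 and 0.84. The median difference over 27 chains was -0.08, beside -0.07 over all named genes.

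In the pathway lists no gene was called between genotypes in any tissue. In the heart the laminins had a median difference of -0.23 over 10 tested chains, 2 of them positive. The basement membrane partners had a median of 0.08 with 8 of 13 positive. Over all named genes the heart median was -0.08, and 41.6% were positive. In the liver 10 of 11 laminins were positive, where 55.7% of named genes were, with a median of 0.21 beside 0.03. Without the liver of WT2, 9 of the 11 were positive and the median was 0.08. The adaptors ranged from -0.46 to 0.63 in hearts, and in muscle from -0.48 to 0.46.

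Age was compared with genotype as a term, 5 months against 2 months, with 2 older mice in each tissue. No chain was called at an adjusted p under 0.05 in any tissue, and of named genes 0.00623% were in the liver and 0% in the others. In the liver 5 of 27 chains, or 18.5%, had an unadjusted p under 0.05, where 17.9% of named genes did. Among them, Lamc3 stood at -1.42 and -0.95 in the livers of WT1 and KI1 and between -2.46 and -1.34 in the 4 younger mice, a difference of 0.68 ± 0.21 (SE, adjusted p = 0.238). Itga9 stood at -0.96 and -0.95 in the older livers and between -0.57 and 0.86 in the younger (adjusted p = 0.253). In muscle Itga10 was the only chain, with -1.80 and -1.01 in the older mice and between -0.84 and -0.23 in the younger, where 5.01% of named genes had such a p. In the brain and heart 0 chains did, against 2.97% and 4.16%. In the brain the older mice were the only ones on their slide, so that age and slide cannot be told apart there.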

How the data were processed

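RNA of 4 tissues from the same 6 mice was hybridized to 24 one-colour (Cy3) Agilent arrays. The scanner files give an intensity per spot, the processed signal, which the authors deposited as written by Feature Extraction 12.0.3.1 after its background correction. The authors also deposited a table of scores, which were recomputed within 0.005 as z-scores of the log10 processed signals of each array. Control spots (3671 of 62976) were left out and spots of a probe averaged, giving 55681 probes. Of these, 28331 were named through accessions in a RefSeq table (21368 genes) and 27350 were unnamed. Signals were divided by the 75th percentile of each array and taken to log2, since the sources used here give no normalization other than these z-scores and no array test. Testing was limited to probes called well above background in at least 3 arrays of 1 tissue. limma 3.58.1 in R 4.3.3 was used with Benjamini-Hochberg adjustment over all tested probes and a threshold of 0.05, with data.table (1.17.8) and statmod (1.5.0). The tissue fit held all 24 arrays with a mean for each tissue and genotype, and each genotype fit held the 6 arrays of its tissue. The fits were tested on simulated data. With 3 mice a group, the number of arrays limits the precision.

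The chains and lists were chosen with earlier results of these data known. Chains are named by role, and some results are not reported here. Values in every mouse are given for the chain with an unadjusted p under 0.05 and for the other chains of smallest p, at most 3 a tissue, and of a pathway list at most the 4 genes of smallest p are named. Lamb1 in the brain and Lamc1, Lamb1 and Lamc3 in the heart fall outside this rule and were chosen after their values were seen. The replicate numbers name the same mouse in every tissue. Deviations of the 36 pairs of same-mouse arrays correlated between -0.219 and 0.262 (median 0.047), and the consensus correlation with the mouse as a random block was 0.026. Alternatives were 22 other settings, among them quantile normalization, normexp with an offset of 50, the authors' z-scores, other filters, second probes, slide, age and mouse blocks and leaving out each mouse. Leaving out the hearts of KI1 and KI3, or these and the brain and muscle of KI3, was chosen after seeing the data.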

Additional observations from a re-analysis of the deposited data

Results flagged for a closer look

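Lamb1, a broadly expressed laminin beta chain, differed between genotypes by 0.38 in the brain and by -0.163 in the heart. All 3 Rap1 KI/KI brains were above all 3 WT brains, and all 3 Rap1 KI/KI hearts were below all 3 WT hearts, where 5.77% of named genes lay above all WT brains and 11.7% below all WT hearts. The brain of KI3 was the highest, and without it the brain difference was 0.22. With quantile normalization the heart difference was 0.054, the opposite direction. The contrast between these tissues alone was not tested, and the limma test of a genotype difference that varies over the 4 tissues gave an adjusted p of 1 for Lamb1. The adjusted p within a tissue was 1 in the brain and 0.812 in the heart.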

How the results depend on the processing

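No chain was called between genotypes under any alternative with an adjusted p, and with an unadjusted p under 0.05 there was 1, Itgb7 in the brain. With the mouse as a random replicate block the counts of called chains were 0 between genotypes in each tissue, 27 over the tissues and 21 instead of 20 for liver against heart, with no other count changed. Leaving out each mouse in turn gave 18 to 20 called chains for heart against muscle, 18 to 23 for liver against brain, 19 to 20 for liver against heart, 22 to 24 for liver against muscle, 21 to 23 for brain against muscle, 25 for brain against heart and 27 to 28 over the tissues. On the Rap1 KI/KI arrays alone, 12 chains were called for heart against muscle instead of 22. With the slide as a block, 20 of 135 called differences between tissues no longer passed and Lamc3 changed sign for liver against muscle, to 0.423. The second probe changed the sign for Itgb1 in liver against muscle (-0.771), Itgb3 in liver against heart (0.841) and Lama3 in brain against heart (0.554) and brain against muscle (0.332). Quantile normalization turned the Lamb1 difference between genotypes in the heart to 0.054. The causes were not tested. Chains below background in a tissue have only bounds there.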
